A study of Homo sapiens with 4 samples.

Results

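The 4 CDC2-like kinases CLK1, CLK2, CLK3 and CLK4 were followed through the skipped exon events of HEK293T cells with and without an antisense oligonucleotide (ASO) against the small nucleolar RNA SNORD89. All events assigned to these 4 gene symbols were taken, which gave 31 of the 65601 events in the table, of which 29 averaged 20 or more junction reads (reads that span a splice junction) over the 4 libraries. These 29 events, out of 54503 that passed the same minimum, covered 23 exons: 6 each in CLK1, CLK2 and CLK3 and 5 in CLK4. HEK293T is a human embryonic kidney line. Per the labels, 2 libraries came from 293T cells transfected with a gapmer against SNORD89 at 70 nM, with new medium at 24 hours and RNA at 48 hours, and 2 came from 293T cells whose treatment is given as none. The labels of both groups carry the transfection protocol and name no control ASO, so an effect of the lipid or of any ASO cannot be told apart from that of SNORD89. An exon table holds no marker of the cell line and no measure of SNORD89, so neither was checked here.

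CLK kinases are dual-specificity kinases of the nucleus that phosphorylate the arginine-serine stretches of SR proteins, the RNA-binding proteins that help the spliceosome choose exons. Phosphorylation releases SR proteins from nuclear speckles, and CLK messages are themselves spliced in a way that responds to CLK activity. In CLK1 the best known case is exon 4, whose skipping shifts the frame and removes the kinase domain from the encoded protein.

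The table compares a first set of 2 libraries with a second set of 2. Its header does not say which set received the ASO. Its title puts SNORD89 first and noASO after it, which does not settle the sides, so directions are given here as first set against second set only. Libraries are numbered by their place in the set, and these numbers pair nothing. The libraries held 38613055 to 43929373 junction reads. Library 2 of the second set stood apart: among the 36045 tested events of all genes with a mean inclusion level of at least 0.95, 76.0% had no skipping read in it, against 41.2%, 44.6% and 51.6% in the other libraries. In the 15 CLK events of this kind, 14 had no skipping read in that library, against 9 and 4 in the first set and 7 in library 1 of the second. Results that rest on this library are therefore given with and without it.

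The exons at the centre of the family are shown first. In GENCODE release 29 the main transcript of each of the 4 genes has 13 exons, and exons 5 to 12 have the same lengths in all 4 (67, 117, 167, 95, 130, 83, 80 and 91 nt). Exon 4 is the one exon from 4 to 12 whose length varies, and it is the most skipped of the numbered exons measured here. Its sequence is printed for each gene, 5′ to 3′, from GENCODE 29 transcripts matched to the table by the spacing of the 3 exons of the event. Capitals mark the 6 of 91 bases at which CLK1 and CLK4 differ, and in CLK2 the first 3 bases, which a second splice acceptor leaves out.
CLK1 exon 4, minus strand, hg19 chr2:201724848-201724938: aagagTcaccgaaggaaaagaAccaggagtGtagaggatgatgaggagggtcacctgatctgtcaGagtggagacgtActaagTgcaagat
CLK4 exon 4, minus strand, hg19 chr5:178044345-178044435: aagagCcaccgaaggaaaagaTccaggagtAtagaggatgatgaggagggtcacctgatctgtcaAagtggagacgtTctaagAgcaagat
CLK2 exon 4, minus strand, hg19 chr1:155238499-155238586: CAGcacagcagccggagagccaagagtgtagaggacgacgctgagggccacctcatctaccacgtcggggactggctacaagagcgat
CLK3 exon 4, plus strand, hg19 chr15:74914461-74914557: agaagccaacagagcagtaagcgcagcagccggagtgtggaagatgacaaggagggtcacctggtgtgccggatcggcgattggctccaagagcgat

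Each of these exons leaves a remainder of 1 when its length is divided by 3 (91, 91, 88 and 97 nt), so leaving it out shifts the frame in all 4 genes. The joined messages are printed from the last 12 bases of exon 3 to the first stop codon in the new frame, which is in capitals, because they show how soon each skipped form ends.
CLK1 exon 3 joined to exon 5: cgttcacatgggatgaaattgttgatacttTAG
CLK2 exon 3 joined to exon 5: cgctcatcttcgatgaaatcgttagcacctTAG
CLK4 exon 3 joined to exon 5: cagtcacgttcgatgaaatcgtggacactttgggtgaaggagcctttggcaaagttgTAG
CLK3 exon 3 joined to exon 5: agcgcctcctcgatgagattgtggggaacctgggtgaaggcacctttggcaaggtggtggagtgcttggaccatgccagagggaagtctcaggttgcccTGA

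By translation of these forms, skipping of exon 4 left 136 residues in CLK1, 139 in CLK2, 152 in CLK3 and 143 in CLK4, where the full proteins have 484, 499, 490 and 481. In each skipped form the stop lay 740 to 809 nt before the last exon junction, which is beyond the distance of about 50 nt that is commonly used to predict nonsense-mediated decay, the pathway that removes messages with early stops. CLK1 and CLK4 are the closest relatives, with 80.0% identical residues over aligned positions, and the other pairs had 53.0% to 61.1%. The longest run of identical coding bases was 34 for CLK1 and CLK4 and 14 to 17 for the other pairs, shorter than the reads of 150 bases. GENCODE also lists the processed pseudogenes CLK2P1 and CLK3P2, which have no introns of their parents; how multi-mapped reads were handled is not given in the sources used here.

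Across the comparison, the CLK events called as different between the sets lay in 1 exon. An event was called where the authors' deposited table had a false discovery rate (FDR) under 0.05 and a shift of inclusion level, in either direction, of 0.1 or more. Inclusion level is the share of inclusion among the inclusion and skipping reads of 1 event, from 0 to 1, after correction for the lengths of both forms. Events can share junctions, so it is not a share of all messages of a gene. By this rule 2 of the 29 CLK events (6.9%) were called, against 2.71% of all 54503 tested events. Both were lower in the first set, and 1.37% of tested events were called in that direction. Both concern the same exon, a stretch of 836 nt in intron 2 of CLK4, so they are 1 exon and not 2 findings. Most inclusion reads of both lay on a junction that another exon shares, as given below. An FDR under 0.05 at any size of difference was reached by 3 CLK events (10.3%), against 5.72% of all events. The third was a rare exon of 41 nt, also in CLK4.

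Tests that take the spread between libraries as their error called none of these events. In the quasi-binomial model this spread was a trend on depth pooled over 22168 events, so an event's own spread did not enter its p-value. The quasi-binomial model of inclusion and skipping reads, fitted to all 54503 events with Benjamini-Hochberg adjustment, gave 0 CLK events with an adjusted p-value under 0.05, with a smallest adjusted p-value of 0.861, and 1 event in the whole table (0.00183%). At an unadjusted p under 0.05 it gave 2 CLK events, the 836-nt and the 41-nt exon of CLK4, against 3.27% of all events. A p-value that misses the threshold here does not show that levels were alike. A limma fit with precision weights gave 0 CLK events adjusted (0.657% of all events passed) and 4 unadjusted (9.92% of all events). In simulated reads with scatter between libraries, 200 events were changed by 0.3 in the share of inclusion reads. After adjustment limma found 0 of these and the quasi-binomial model 98, so a count of 0 does not show that levels were alike. Over the 29 CLK events the median absolute difference was 0.0130, and over all tested events it was 0.0114.

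**Figure D1:**
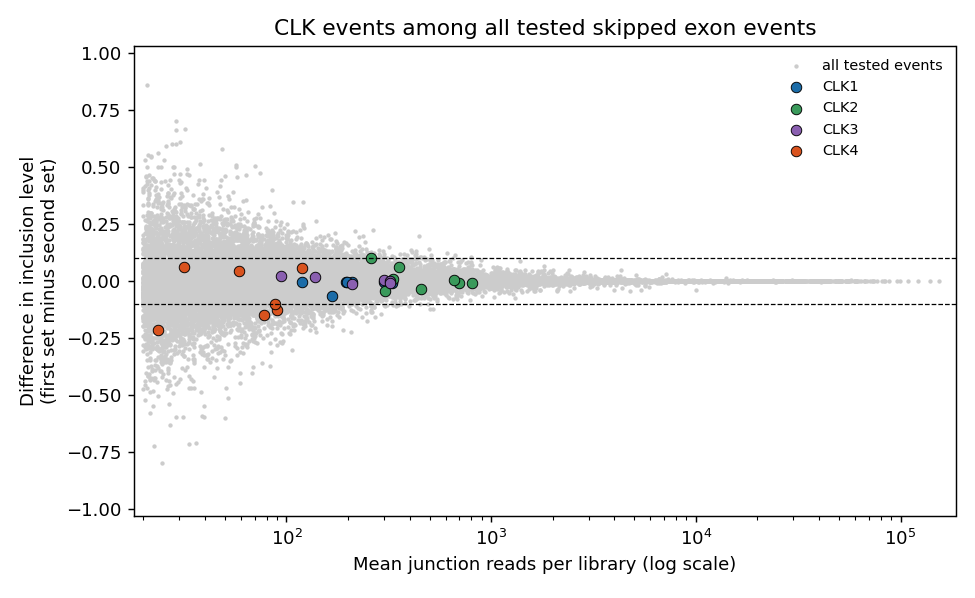
Difference in inclusion level (first set minus second set) against the mean junction reads per library on a log scale, with 1 point per tested event, grey for all 54503 events and coloured for the 29 CLK events; dashed lines mark differences of 0.1 in either direction. Most CLK points lie near 0, and the points below the lower line are CLK4 events.

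CLK4 intron 2 held the called exon. In this intron, between exon 2 and exon 3, the table has exons of 836, 59 and 67 nt that are absent from the main transcript. The 836-nt exon (hg19 chr5:178046839-178047674) and the 59-nt exon (178046839 to 178046897) end at the same splice donor and differ in their acceptor. The start of the 836-nt exon is printed, up to the first stop codon in the frame of exon 2 in capitals, because the reading frame ends inside it.
CLK4 836-nt exon, first 109 bases, minus strand: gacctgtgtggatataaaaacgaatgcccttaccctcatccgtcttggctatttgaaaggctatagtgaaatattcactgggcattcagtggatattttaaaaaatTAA

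With the 836-nt exon the encoded protein would stop after 89 residues, 1871 nt before the last junction. The 59-nt exon would end it after 76 residues and the 67-nt exon (178049394 to 178049460) after 53, against 481 residues without them. All 3 lengths leave a remainder when divided by 3, so each shifts the frame of exon 3.

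Between exon 2 and exon 3, the inclusion level of the 836-nt exon was 0.124 (95% Wilson interval 0.0838 to 0.181) and 0.160 (0.101 to 0.243) for the first set, against 0.253 (0.170 to 0.358) and 0.327 (0.230 to 0.440) for the second. Both libraries of the second set lay above both of the first. The authors' deposited table lists the difference as -0.148, at an FDR of 0.0156. The quasi-binomial p was 0.0473, with an adjusted p-value of 0.861. The difference was -0.111 without library 2 of the second set and lay between -0.130 and -0.185 with any other library left out.

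The reads behind this level are given for each form. Reads that joined the 836-nt exon numbered 25 and 19 for the first set, against 25 and 32 for the second, while reads that joined exon 2 to exon 3 directly numbered 88 and 50 against 37 and 33. Relative to library size, the direct junction stood at 2.28 and 1.28 reads per 1000000 junction reads against 0.863 and 0.751, a ratio of 0.453 of the second to the first set by the means, and the junctions of the 836-nt exon stood at 0.647 and 0.487 against 0.583 and 0.728, a ratio of 1.16. On this scale the sets did not overlap for the direct junction and did for the junctions counted for the 836-nt exon. The median gene had a ratio of 0.766 on the same scale. With the second set scaled so that the median gene is even, the direct junction stood at 1.13 and 0.981 for that set, a ratio of 0.592, and the junctions of the 836-nt exon at 0.761 and 0.951, a ratio of 1.51, and the sets did not overlap for either. The inclusion level does not depend on this scaling. No test was run on these single junctions.

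The second called event places the 836-nt exon between the 67-nt exon and exon 3 and is shallow, with 19 to 32 reads per library. Its level was 0.846 (95% Wilson interval 0.589 to 0.955) and 0.727 (0.454 to 0.895) for the first set, against 1 (0.712 to 1) and 1 (0.806 to 1) for the second. The inclusion reads, 22 and 16 against 19 and 32, also take in the shared junction to exon 3. Events of the 67-nt exon itself had 0 inclusion reads in library 2 of the second set. As in the event between exons 2 and 3, nearly all inclusion reads lay on the shared junction, in every library. The levels of this event therefore do not measure inclusion after the 67-nt exon in any library. The skipping reads numbered 2 and 3 for the first set, against 0 and 0 for the second. The authors' deposited table lists -0.214 for it with an FDR of 0.0240, and the quasi-binomial adjusted p-value was 0.861. Without the correction for form lengths its difference was -0.121.

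The 59-nt exon shares its skipping junction and its junction to exon 3 with the 836-nt exon and so is no separate evidence. Its level between exons 2 and 3 was 0.259 (95% Wilson interval 0.196 to 0.335) and 0.340 (0.252 to 0.441) for the first set, against 0.404 (0.30 to 0.517) and 0.394 (0.285 to 0.515) for the second. The sets did not overlap, but the event was not called: per the authors' deposited table the difference is -0.1 and the FDR 0.371. The reads that joined the 59-nt exon were 43 and 36 for the first set, against 35 and 30 for the second. The read minimum ran between 2 CLK4 events that share a skipping junction: the 836-nt event just described had a mean of 23.5 reads and was kept, and the 59-nt exon placed after the 67-nt exon had a mean of 13.5 reads and was not, at levels of 0.741 and 0.756 for the first set, against 1 and 1 for the second. The levels of this 59-nt event also count the junction to exon 3 that is shared with the 836-nt exon. The other event under the minimum, the 67-nt exon before the 836-nt one, had a mean of 9 reads and none in library 2 of the second set.

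The 67-nt exon of intron 2 was rare. Its level between exons 2 and 3 was 0.0925 (95% Wilson interval 0.0543 to 0.153) and 0.0994 (0.0505 to 0.186) for the first set, against 0.101 (0.0462 to 0.205) and 0 (0 to 0.0743) for the second. In 3 libraries it was nearly the same, and library 2 of the second set had 0 inclusion and 33 skipping reads. The deposited FDR of this event is 0.574 in the authors' deposited table, and the difference of 0.045 became -0.005 without that library. A second event with the 59-nt exon as its downstream neighbour had levels of 0.174, 0.142, 0.193 and 0 and the same outlying library.

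The 41-nt exon lies in intron 10 of CLK4 (hg19 chr5:178032826-178032866), within the part of the gene that encodes the kinase domain. Included between exons 10 and 11, it would end the protein after 401 residues, 140 nt before the last junction. Its level was 0.114 (95% Wilson interval 0.0736 to 0.172) and 0.00925 (0.00163 to 0.0506) for the first set, against 0.00786 (0.00139 to 0.0432) and 0 (0 to 0.0187) for the second. Library 1 of the first set alone held 19 inclusion reads, and the other libraries held 1, 1 and 0. The authors' deposited table gives it the lowest FDR of any CLK event, 0.000528, at a difference of 0.057, which is under the size needed for a call. Without library 1 of the first set the difference was 0.005.

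**Figure D2:**
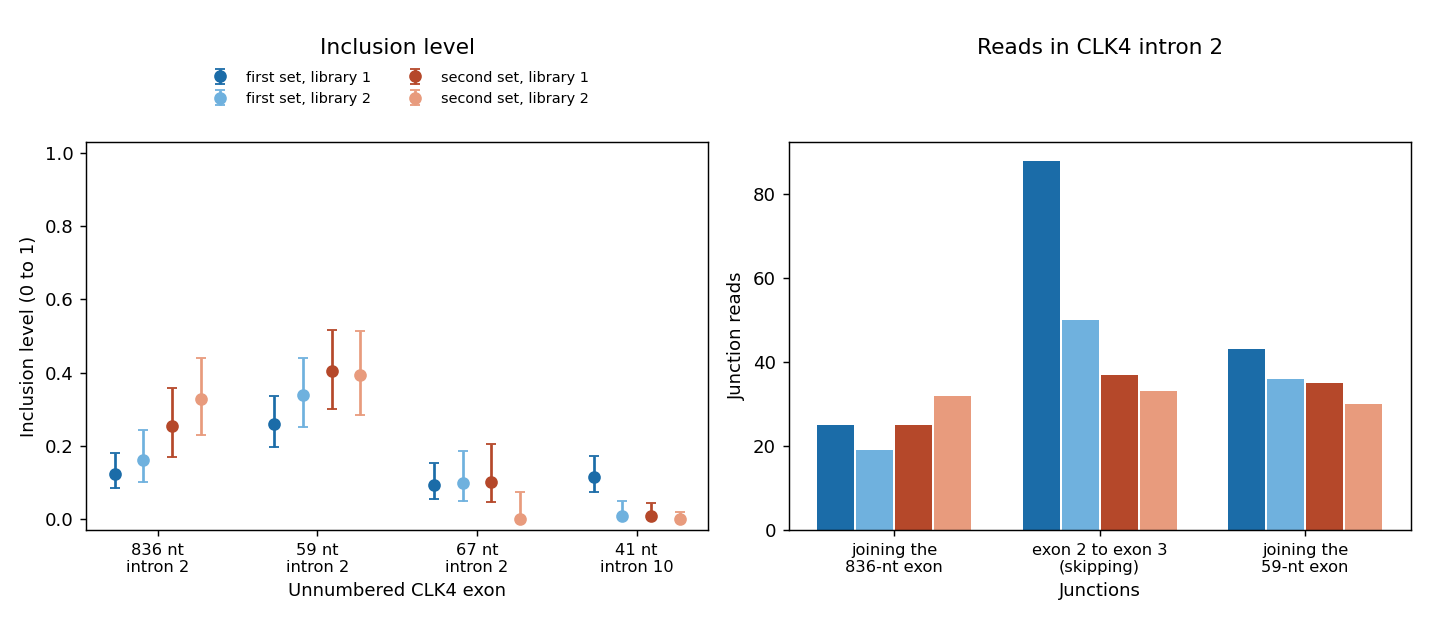
Left: inclusion level from 0 to 1 of the CLK4 exons that are absent from the main transcript, 1 point per library with its 95% Wilson interval. Right: junction reads in intron 2 as counts per library. The 836-nt exon is higher in both libraries of the second set, where the exon 2 to exon 3 junction has 37 and 33 reads against 88 and 50, and the 41-nt exon has 19 inclusion reads in 1 library and at most 1 in each other.

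Exon 4 had the lowest inclusion of the numbered exons with a tested event in CLK1, CLK2 and CLK3, and in CLK4 it was the only numbered exon measured. No exon 4 event was called. The 2 sets overlapped in every exon 4 event other than the 85-nt form of CLK2. In the order of the mean over the 4 libraries, CLK4 was lowest at 0.460, followed by the 85-nt form of CLK2 at 0.533, CLK1 at 0.543, the 88-nt form of CLK2 at 0.639 and CLK3 at 0.792. The ranges over libraries overlapped between neighbours up to the 88-nt form of CLK2. CLK3, at 0.754 to 0.844, lay above that form's 0.528 to 0.694 in every library.

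In CLK1, exon 4 was included at 0.538 (95% Wilson interval 0.459 to 0.616) and 0.483 (0.414 to 0.553) for the first set, against 0.468 (0.384 to 0.554) and 0.681 (0.597 to 0.754) for the second, from 133 to 203 reads per library. Library 2 of the second set was the high one, and the other 3 libraries lay within overlapping intervals. In the authors' deposited table the difference is -0.064 and the FDR 1, and the quasi-binomial adjusted p-value was 0.861. Without library 2 of the second set the difference turned to 0.043.

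CLK4 had the same highest and the same lowest library at its exon 4, of which 85 of 91 bases equal those of CLK1. Its level was 0.350 (95% Wilson interval 0.271 to 0.438) and 0.444 (0.358 to 0.534) for the first set, against 0.333 (0.236 to 0.448) and 0.713 (0.577 to 0.819) for the second, from 65 to 119 reads. Library 2 of the second set was again the highest, and library 1 of that set the lowest. With -0.126, the authors' deposited table has a larger difference here than for CLK1 but an FDR of 1. Without library 2 of the second set the CLK4 difference turned to 0.064.

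CLK2 uses 2 acceptors for exon 4 that lie 3 bases apart, and both exon forms are counted against the same skipping reads. The 88-nt form was at 0.648 (95% Wilson interval 0.590 to 0.702) and 0.694 (0.639 to 0.743) for the first set, against 0.687 (0.633 to 0.736) and 0.528 (0.474 to 0.583) for the second. The 85-nt form stood at 0.566 (0.502 to 0.628) and 0.601 (0.537 to 0.661) for the first set, against 0.540 (0.474 to 0.605) and 0.427 (0.370 to 0.486). In both forms library 2 of the second set was the lowest, the opposite of its place in CLK1 and CLK4, with 124 skipping reads against 80 to 85 in the other libraries.

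The sets did not overlap for the 85-nt form, and the authors' deposited table lists its difference as 0.1 with an FDR of 0.257. Its quasi-binomial p was 0.0924, with an adjusted p-value of 0.861, and the difference was 0.043 without library 2 of the second set. For the 88-nt form the deposited difference is 0.064 and the FDR 0.916 by the authors' deposited table, and it turned to -0.016 without that library. The 88-nt form had more inclusion reads than the 85-nt form in every library, by 75, 99, 138 and 76 reads. Because the downstream junction is common to both forms, this excess is the excess of reads on the upstream acceptor. In protein, the forms differ by 1 residue, 499 against 498.

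CLK3 had the highest mean level among the exon 4 events. Its level was 0.793 (95% Wilson interval 0.725 to 0.847) and 0.779 (0.699 to 0.842) for the first set, against 0.844 (0.773 to 0.895) and 0.754 (0.683 to 0.813) for the second, from 177 to 234 reads. The libraries of the second set lay on either side of those of the first, and all 4 intervals overlapped. The authors' deposited table has -0.013 and an FDR of 1. Without library 1 of the second set the difference turned to 0.032.

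**Figure D3:**
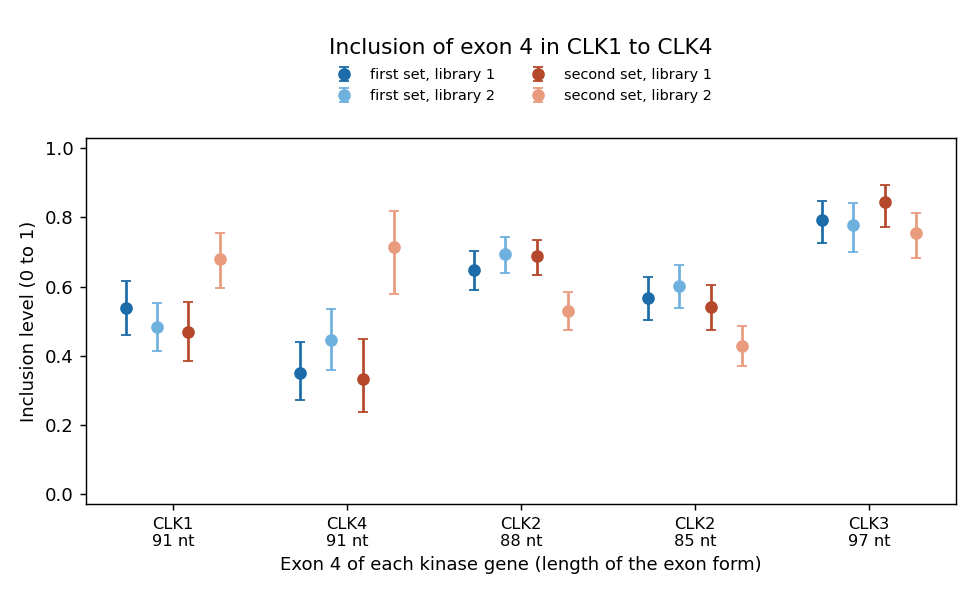
Inclusion level of exon 4 from 0 to 1 in CLK1, CLK4, both forms of CLK2, and CLK3, with 1 point per library, coloured by set, and its 95% Wilson interval. Library 2 of the second set is highest in CLK1 and CLK4, at 0.681 and 0.713, and lowest in CLK2 and CLK3.

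Among intermediate events the share of separated sets was close to that of the whole table. Of the 29 CLK events, 13 had a mean inclusion level between 0.05 and 0.95, 15 were at or above 0.95 and 1, the 41-nt exon of CLK4, was under 0.05. In 4 of the 13 the sets did not overlap, against 33.5% of all tested events in that range, and these were both events of the 836-nt exon and the 59-nt exon of CLK4 and the 85-nt form of CLK2. Over all 29 events the sets did not overlap in 5, against 22.8%. The median difference over the 13 events was -0.0330 and over all 13318 tested events of intermediate inclusion it was 0.0043. With 2 libraries against 2, no exact test on a single event can give a two-sided p under 1 in 3.

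Exons 7 and 8 encode part of the kinase domain, and CLK1 and CLK2 skipped them in different ways. In CLK1 exon 7 was left out alone: reads joining exon 6 to exon 8 numbered 20 and 25 for the first set, against 24 and 11 for the second, while reads joining exon 6 to exon 9 numbered 0 and 1 against 0 and 0. In CLK2 exons 7 and 8 were left out together: reads joining exon 6 to exon 9 numbered 37 and 41 against 34 and 25, and reads joining exon 6 to exon 8 numbered 10 and 8 against 9 and 0. In every library CLK1 had more reads on the first of these junctions than on the second, and CLK2 had fewer. In CLK3, reads joining exon 6 to exon 8 numbered 1 and 3 against 3 and 0. The difference between the genes was not tested.

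CLK1 exon 7 (hg19 chr2:201722441-201722607) stood at an inclusion level of 0.887 (95% Wilson interval 0.833 to 0.925) and 0.879 (0.829 to 0.915) for the first set, against 0.855 (0.796 to 0.899) and 0.927 (0.875 to 0.958) for the second. The sets overlapped, and the authors' deposited table lists an FDR of 1 at a difference of -0.008. Without library 2 of the second set the difference turned to 0.028. Skipping of this exon would end the protein after 225 residues, 466 nt before the last junction.

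CLK2 exon 7 (hg19 chr1:155236520-155236686), counted against skipping of both exons, had levels of 0.851 (95% Wilson interval 0.803 to 0.888) and 0.833 (0.784 to 0.873) for the first set, against 0.848 (0.798 to 0.888) and 0.902 (0.860 to 0.932) for the second. Exon 8 (155235651 to 155235745), against the same skipping reads, had 0.835 and 0.775 for the first set, against 0.823 and 0.872 for the second. Nearly all inclusion reads of the exon 7 event lay on 1 of its junctions. The other, which leaves out exon 8, had 5 and 7 reads for the first set, against 7 and 9 for the second. In the exon 8 event, the junction that leaves out exon 7 had 10 and 8 reads, against 9 and 0. The correction for form lengths counts both junctions of each event, so these levels understate inclusion. They cannot be set beside the level of CLK1 exon 7. The sets overlapped in both events, with FDR values of 0.711 and 0.738 in the authors' deposited table. Their differences of -0.033 and -0.042 were -0.006 and -0.018 without library 2 of the second set. Without exons 7 and 8 the protein would end after 230 residues, 362 nt before the last junction. Against the single-exon junctions, CLK2 exon 7 was at 0.976 to 1 and exon 8 at 0.978 to 0.989.

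In the remaining events, the exons of CLK1, CLK2 and CLK3 were included almost always. The 15 events at or above a mean of 0.95 covered 14 exons, among them CLK1 exon 7 and CLK2 exons 7 and 8 in events with another skipping junction than above, with levels of 0.988 to 1 in CLK1, 0.976 to 1 in CLK2 and 0.927 to 1 in CLK3, and the largest absolute difference was 0.022. The deepest of CLK1 was exon 11 of 80 nt, with 1 skipping read in library 1 of the first set and 0 elsewhere, beside 283 to 408 inclusion reads. In CLK2 exon 7 between exons 6 and 8 was deepest, with a mean of 809 reads. Exon 7 was the deepest in CLK3 too, with a mean of 321.25 reads and levels of 0.994 and 0.981 for the first set, against 0.979 and 1 for the second. CLK4 had no event of this kind, and exons without an event in the table were not measured. A CLK1 event of 994 nt and a CLK3 event of 441 nt span 2 exons with the intron between them, so their high levels of 0.994 to 1 and 0.939 to 1 rest on junctions that the spliced exons share and do not measure retention of the intron.

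As a rough level of each gene, junction reads over all its events were summed per library. CLK2 was highest at 104 and 93.9 reads per 1000000 junction reads for the first set, against 89.1 and 89.8 for the second. CLK1 had 46.4 and 52.8 against 42.9 and 38.4, and CLK3 had 38.1 and 34.1 against 30.8 and 31.8. CLK4 was lowest, at 17.8 and 12.6 against 9.80 and 10.2, a ratio of 0.656 of the second to the first set. In all 4 genes both libraries of the second set lay under both of the first. The share of all genes with this order was not counted. The median ratio over all genes with at least 20 reads was 0.766, so a lower second set was not particular to the CLK genes. In bulk RNA fewer cells with a message and less of it per cell cannot be told apart. CLK1, CLK2 and CLK3, at 0.820, 0.903 and 0.868, lay above that median and CLK4 below it. These sums count shared junctions more than once and depend on the number of events, so they set no order of message levels between genes, and no test was run.

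**Figure D4:**
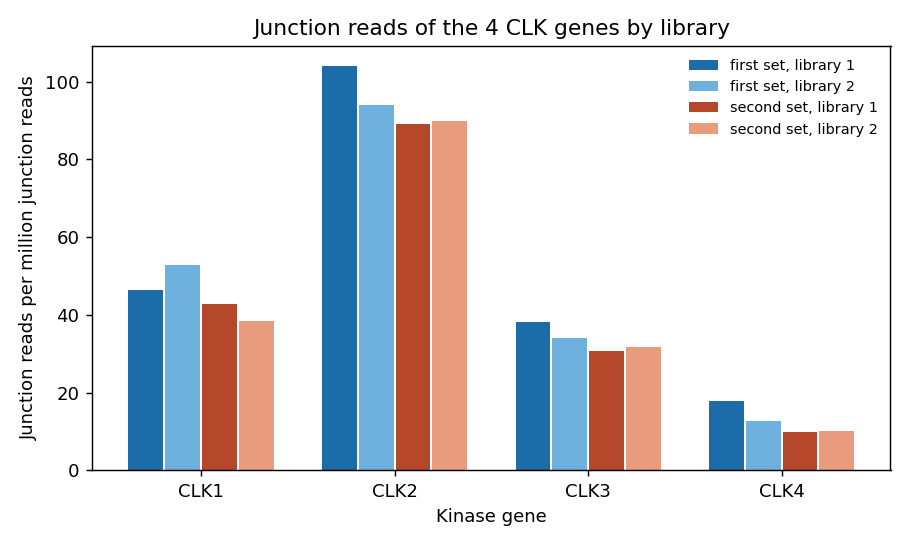
Level of each CLK gene as reads per 1000000 junction reads, summed over its skipped exon events, with 1 bar per library and bars starting at 0. Each gene is lower in both libraries of the second set than in the first, with CLK4 at a ratio of 0.656. The median gene of the whole table is at 0.766 on this scale.

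Exons of the kinases related to CLK and of the SR proteins they act on were set beside the same background. Among 13 related kinases (the SR protein kinases SRPK1 to SRPK3, PRPF4B, and the DYRK and HIPK families) 10 had tested events, 34 in all, and 2 were called, 5.88% of them against 2.71% of all tested events, both lower in the first set, where the background is 1.37%. By the quasi-binomial model 0 of the 34 passed adjustment and 2 had an unadjusted p under 0.05 (5.88%, against 3.27% of all). Limma with precision weights passed 1 after adjustment, against 0.657% of all, and with a pseudocount of 1 in place of 0.5 it passed 0 events of the whole table. In HIPK3, a nuclear kinase named for binding homeodomain proteins, a 63-nt exon (hg19 chr11:33369712-33369774) was at 0.364 and 0.275 for the first set, against 0.831 and 1 for the second, but the second set held only 8 reads per library; the authors' deposited table has -0.596 and an FDR of 9.71e-05. DYRK1A, a kinase encoded on chromosome 21 that also phosphorylates splicing factors, had an 86-nt exon (hg19 chr21:38792601-38792686) at 0.811 and 0.862 for the first set, where 109 and 76 reads covered it, against 1 and 1 for the second, where 19 and 44 did. For DYRK1A the difference is -0.163 and the FDR 0.000853 by the authors' deposited table. The quasi-binomial adjusted p-value was 0.861 for both exons.

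Of 14 SR proteins and SR-like proteins (SRSF1 to SRSF12, TRA2A and TRA2B), 12 had tested events, 65 in all, and 0 were called. An FDR under 0.05 at smaller differences was listed for 5 (7.69%, against 5.72% of all tested events), and the quasi-binomial model gave 0 after adjustment and 5 at an unadjusted p under 0.05 (7.69%, against 3.27%). Limma with precision weights passed 5 of the 65 after adjustment, against 0.657% of all, and 0 with a pseudocount of 1. The lowest FDR was in SRSF1, a founding member of the SR family, at 6.09e-07 for a difference of 0.045 (the authors' deposited table). This 203-nt event (hg19 chr17:56082759-56082961) was at 0.985 and 0.981 for the first set, against 0.954 and 0.922 for the second, from 1331 to 2222 reads. Its skipping reads numbered 17 and 18 for the first set, against 32 and 54 for the second, without overlap, and its quasi-binomial adjusted p-value was 0.804.

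For the intermediate CLK event with most reads, CLK2 exon 7 against joint skipping, the exons of other genes with the closest levels over the 4 libraries were sought among 5177 exons with at least 100 reads. The nearest by root mean square difference were a 90-nt exon of EXOSC2 (0.00736), with levels of 0.840, 0.832, 0.847 and 0.893, a 94-nt exon of RPL17 (0.00952), with 0.867, 0.832, 0.840 and 0.898, and a 141-nt exon of PRPF18 (0.0116), with 0.835, 0.829, 0.858 and 0.889. Over 4 libraries this likeness is a description, and RPL17 has processed copies that can share its reads.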

How the data were processed

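Per the labels' protocols, poly(A) RNA of 293T cells gave 4 libraries with paired reads of 150 bases. The submitters' processing notes name cutadapt, STAR and build hg19; the rMATS version, the settings and the annotation are not given in the sources used here. The deposited table has the rMATS layout for skipped exons on junction reads, per the file headers. For each event the authors deposited inclusion and skipping read counts of 2 libraries per set, the inclusion levels, a p-value and its FDR over all 65601 events. The deposited difference in inclusion level is a score from -1 to 1, the first set minus the second. The reads gave back every deposited level to within 0.0005. Depth per event sets the precision; Wilson intervals cover counting error only. The quasi-binomial and limma p-values set a difference against the spread between 2 libraries per set, which the labels call biological replicates without naming separate cultures. In the quasi-binomial model the prior degrees of freedom came out infinite, so the spread was that of the pooled trend and not of the single event.

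A quasi-binomial model (limma 3.58.1 squeezeVar in R 4.3.3, dispersion trended on reads, at least 1) and a limma fit on the log2 ratio of reads plus 0.5, weighted by reads, were run on all 54503 events with a mean of at least 20 reads. The trend, and a prior from events with at least 10 reads of each form, were chosen on simulated data with known changes.

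Sequences and frames came from GENCODE 29 transcripts (GRCh38), matched by exon spacing; no coordinate was converted. Proteins were aligned with Biopython 1.88. Values per library are given for CLK events of intermediate inclusion or called, and for the related lists for called events and the lowest FDR. Members and lists were chosen with earlier results of these data known. Alternatives were other read minimums, difference and FDR thresholds, 1 event per exon, pseudocounts, form lengths and leaving out each library.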

Additional observations from a re-analysis of the deposited data

How the results depend on the processing

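The count of 2 called CLK events was 1 with a minimum of 50 reads, at a difference of at least 0.2 and with 1 event per exon, and was 0 at an FDR under 0.01, all by construction of the thresholds. It was 3 at each of the looser settings: a minimum of 10 reads, no read minimum and a difference of at least 0.05. Both calls kept a difference of at least 0.1 with each library left out, and both stood with adjustment over tested events only; these checks, and the scaling of CLK4 junctions to the median gene, were chosen after seeing the data. The count of 0 from the quasi-binomial model was 0 under all 8 alternatives, with the smallest adjusted p-value of a CLK event at 0.138 (limma with precision weights) and 0 to 6 CLK events at an unadjusted p under 0.05; where a set was left with 1 library, that library was assumed to vary like the others. The 4 intermediate events without overlap were 3 at 50 reads. Of 84 recomputed differences of 14 events, 77 kept their sign and 7 reversed. Without library 2 and without library 1 of the second set, these were CLK1 exon 7 (0.028 and -0.044), CLK1 exon 4 (0.043 and -0.170), CLK4 exon 4 (0.064 and -0.316), the 67-nt exon of CLK4 in 2 events (-0.005 and 0.096, -0.035 and 0.158), the 88-nt form of CLK2 exon 4 (-0.016 and 0.142) and CLK3 exon 4 (-0.058 and 0.032), and between these values lay those without a library of the first set. The cause was not tested. No paired analysis was possible because the table does not name which library of a set carries which replicate number. Depth limits CLK4 most, with 62 to 113 reads per library behind the level of its 836-nt exon.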
